A study of Mus musculus with 9 samples.

Results

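The phagocyte NADPH oxidase is the enzyme with which macrophages and neutrophils make superoxide. Its expression was followed through 5 genes, Cybb, Cyba, Ncf1, Ncf4 and Rac2, which were chosen by name from the 22036 genes of the deposited per-library table. All 5 were present and all 5 passed the filter on low values, which kept 14955 genes. RNA sequencing was done on microglia, the resident macrophages of the brain, which had been sorted from brains of C57BL/6 females, all wild-type. The groups are young (6 months), middle-aged (15 months) and old (23 months), and the labels name no treatment. There were 3 libraries per age, each a pool of 3 mice, so p-values below measure the spread between pools and not between single mice. Levels below are log2 normalized counts as deposited, and changes on this scale were mostly smaller than the authors' own. Among genes that the authors' deposited table called in old against young mice, the median ratio of the change here to the authors' log2 fold change was 0.785 at base means of 1000 or more, 0.577 at 100 to 1000 and 0.308 under 100. In middle-aged against young mice the ratios were 0.797, 0.612 and 0.404 in the same order. In old against middle-aged mice they were 0.884, 0.756 and 0.799. Fold changes here may therefore be understated, above all those of low genes in comparisons with young mice. The genes were picked by the authors' call, a choice that may by itself lower the ratio. Depth is unknown, with no read totals used here.

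In a resting phagocyte the oxidase is disassembled. Its membrane part, flavocytochrome b558, is a heterodimer of gp91phox (NOX2, encoded by Cybb), which carries the flavin and the haems that pass electrons to oxygen, and p22phox (Cyba), which stabilises gp91phox and offers the docking site for the cytosolic part. The cytosolic part includes the organiser p47phox (Ncf1) and p40phox (Ncf4), whose PX domain binds phosphatidylinositol 3-phosphate on phagosomes. On stimulation p47phox is phosphorylated, the cytosolic subunits move to the membrane, and the GTPase Rac2, in its GTP-bound form, completes the active enzyme; in microglia the enzyme is a known source of reactive oxygen species.

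The cells were checked against markers first. The 9 microglia markers used, Tmem119, Cx3cr1, Csf1r, Sall1, Siglech, Fcrls, Olfml3, Trem2 and Aif1, all lay at or above the 98.2th percentile of all genes by mean level. All 16 neutrophil markers also passed the filter, and none was at 0; the granule gene Ngp had a mean log2 level of 17.58. The summed linear level of the neutrophil markers ran from 270034 to 1061630 across the 9 libraries, against 1219287 to 1758008 for the microglia markers and 96567 to 137537 for the 5 oxidase genes. The 12 border macrophage markers ran from the 59.1st percentile (Folr2) to the 99.2nd (Stab1), at summed levels of 92416 to 150072. Marker levels of this kind do not by themselves set microglia apart from other cells. Neutrophils and monocytes are also known to express this oxidase, so their markers and those of border macrophages are set beside the results below. Old replicate 3 stood apart from the other libraries, at 29.9 on the first principal component, where the others spanned -14.4 to 5.9.

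From young to old the 2 membrane subunit genes, Cybb and Cyba, had the highest estimated changes of the 5, and the sequences upstream of both are shown for that reason. The sequences are the 250 bases before the RefSeq transcript start, 5′ to 3′ on the gene's strand, in the GRCm38.p6 build. Cybb lies on the minus strand of chromosome X at 9435252 to 9487771, with its window at chrX:9469325-9469574. This window precedes an internal start, the RefSeq one, and lies in an intron of an annotated transcript that begins further upstream. Cyba lies on the minus strand of chromosome 8 at 122424776 to 122432930, with its window at chr8:122432941-122433190. No annotated exon of either gene falls in its window. Capitals mark matches to a CCAAT box (CCAAT) or an Sp1 GC box (GGGCGG).
Cybb: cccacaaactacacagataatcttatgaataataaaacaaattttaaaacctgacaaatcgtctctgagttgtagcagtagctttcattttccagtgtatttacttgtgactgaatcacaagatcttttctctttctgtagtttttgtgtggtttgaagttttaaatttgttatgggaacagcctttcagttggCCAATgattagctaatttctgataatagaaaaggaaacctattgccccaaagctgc
Cyba: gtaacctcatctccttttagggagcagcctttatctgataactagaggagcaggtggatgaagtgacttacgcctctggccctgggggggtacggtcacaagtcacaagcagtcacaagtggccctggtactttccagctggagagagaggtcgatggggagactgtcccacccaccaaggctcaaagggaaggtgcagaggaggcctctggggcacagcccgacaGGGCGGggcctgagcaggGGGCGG
The Cybb window held 1 CCAAT box, 56 to 52 bases before the start, and the Cyba window held 2 GC boxes, 24 to 19 and 6 to 1 bases before it. A CCAAT box was found in 33.8% and a GC box in 32.7% of 32851 mouse windows of this length, both strands searched. Neither window held the letters GAGGAA, a strict form of a PU.1 site (23.3% of windows), or a TATA box searched as TATAAA (12.4%). Shorter or variant forms of these sites were not searched. These are matches of letters and say nothing of factors bound in these cells. The Ncf1 window held 1 GC box and no other of these motifs; Ncf4 and Rac2 had no entry.

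Cybb, the catalytic subunit, was higher at both later ages. Its log2 levels in young replicates 1, 2 and 3 were 14.23, 14.67 and 14.57. They were 15.05, 15.26 and 14.62 in the middle-aged libraries and 15.24, 15.27 and 14.86 in the old ones. Every old library thus lay above every young one, while middle-aged replicate 3, at the level of the young libraries, made the middle-aged and young ranges overlap. From young to old Cybb was 1.55-fold higher (log2 0.64 ± 0.18 SE, n = 3 per group), with an adjusted p of 0.0975 over all genes tested (limma moderated test, Benjamini-Hochberg). From young to middle-aged the difference was 1.40-fold (0.49 ± 0.18, adjusted p = 0.316), and from middle-aged to old it was 1.11-fold (0.15 ± 0.18, adjusted p = 0.809). Within old libraries the lowest was replicate 3, the library that stood apart. Without it the log2 change from young to old was 0.77, the highest value with any single library left out. The lowest such value was 0.51, without young replicate 1 (adjusted p = 0.336, limma, Benjamini-Hochberg).

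Cyba, the partner subunit, ordered the 3 ages with no overlap. Its levels were 15.10, 15.24 and 15.06 in the young libraries, 15.29, 15.33 and 15.26 in the middle-aged ones and 15.50, 15.37 and 15.70 in the old ones. Each middle-aged library was above each young one and below each old one, an order that 1.05% of all genes tested showed. Old against young, Cyba was 1.31-fold higher (log2 0.39 ± 0.09, adjusted p = 0.0648, limma, Benjamini-Hochberg). The earlier step was 1.12-fold (0.16 ± 0.09) and the later step 1.17-fold (0.23 ± 0.09), with adjusted p of 0.589 and 0.44. Without old replicate 3 the later step was 0.14. Old replicate 3, the lowest old library for Cybb, was the highest of all 9 for Cyba, so the partners of the heterodimer did not share their order among old libraries. Without old replicate 3 the log2 change of Cyba from young to old was 0.30.

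None of the 5 genes passed the threshold in any pairwise comparison here. In old against young, 0 of 5 were called at an adjusted p under 0.05 (limma, Benjamini-Hochberg), where 2.00% of all genes were. Cybb and Cyba were 2 of 5 that were higher at an unadjusted p under 0.05, as were 9.07% of all genes. The same 2 were higher with no overlap between the ages, as were 12.2% of all genes. An exact two-sided permutation test gave 0.1 for both, the smallest p that 3 against 3 libraries allow. The authors' deposited table from DESeq2 called both higher in old mice, Cybb with a log2 fold change of 0.69 (adjusted p = 0.00336) and Cyba with 0.46 (adjusted p = 0.0175), where it called 4.72% of genes higher. In middle-aged against young, 0 of 5 were called by limma (0.114% of all genes). Cybb alone was higher at an unadjusted p under 0.05 (6.21% of all genes), and Cyba alone was higher with no overlap (11.6% of all genes). The authors' deposited table gave Cybb 0.47 (adjusted p = 0.078) and called 0 of 5, against 3.26% of all genes called higher. In old against middle-aged, 0 of 5 were called by limma (0.174% of all genes). Cyba alone was higher at an unadjusted p under 0.05 (5.42% of all genes) and alone higher with no overlap (6.47% of all genes). The authors' deposited table gave Cyba 0.26 (adjusted p = 0.477) and called 0 of 5, against 0.859% of all genes called higher. The call for old against young depended on how libraries were weighted: with limma's library weights both genes were called, Cybb at log2 0.70 (adjusted p = 0.00647) and Cyba at 0.39 (adjusted p = 0.00581), when 1609 genes were called in all against 299 without weights. Cyba was also called without old replicate 2 (log2 0.47, adjusted p = 0.0403). Over all alternatives the adjusted p ran from 0.00647 to 0.336 for Cybb and from 0.00581 to 0.276 for Cyba.

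**Figure D1:**
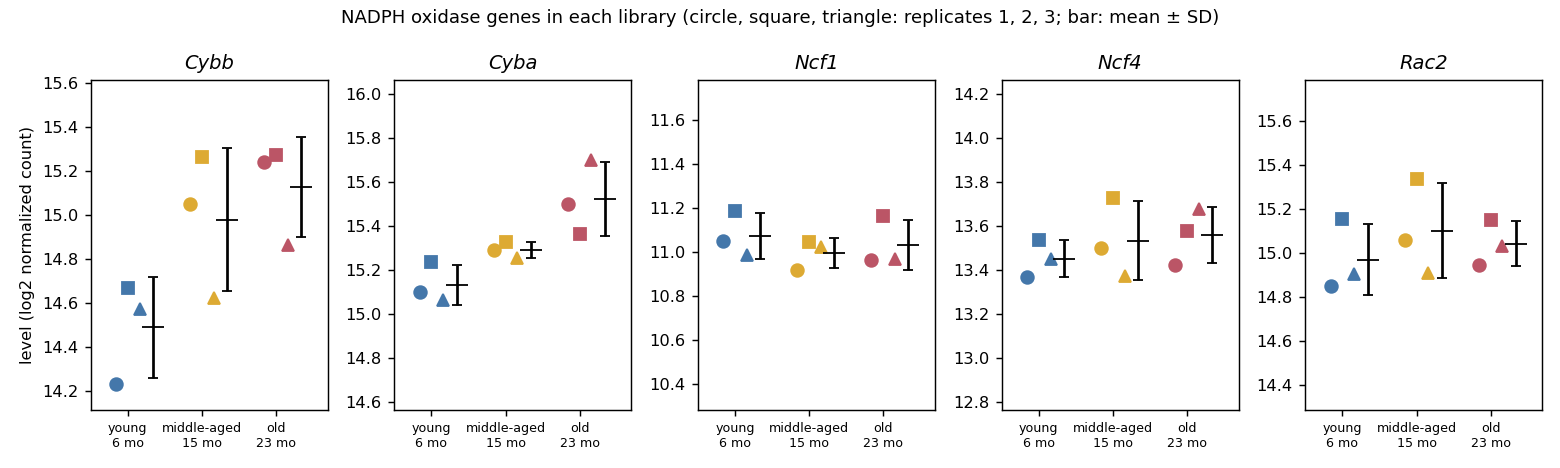
Log2 normalized count of the 5 oxidase genes (vertical axes, each spanning the same range) in young, middle-aged and old libraries; circles, squares and triangles are replicates 1, 2 and 3, and the black bar is the mean ± SD of 3 libraries. Old Cybb libraries lie at 14.86 to 15.27 and young ones at 14.23 to 14.67, Cyba steps up at each age without overlap, and the ages overlap for Ncf1, Ncf4 and Rac2.

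The cytosolic subunits had smaller estimated changes from young to old, with overlapping ages for Ncf1 and Ncf4. Ncf1, the organiser, had levels of 11.05, 11.19 and 10.98 in young libraries, 10.92, 11.05 and 11.02 in middle-aged ones and 10.96, 11.16 and 10.97 in old ones. These ranges overlapped at all 3 ages, and the log2 change from young to old was -0.04 ± 0.10 (95% interval -0.26 to 0.18, adjusted p = 0.866, limma, Benjamini-Hochberg). Ncf1 lies on the minus strand of chromosome 5 at 134220053 to 134229625, and its exons share bases with exons of Gtf2ird2 on the other strand; no source used here says whether counting used strand, so the reads of both genes may not have been told apart. Ncf4, the phosphoinositide-binding subunit, had levels of 13.37, 13.54 and 13.45 in young, 13.50, 13.73 and 13.37 in middle-aged and 13.42, 13.57 and 13.68 in old libraries. Its ages also overlapped, and its change from young to old was 0.11 ± 0.11 (interval -0.14 to 0.35, adjusted p = 0.664). Ncf4 is on the plus strand of chromosome 15 at 78244801 to 78262580. Neither gene passed the threshold. Their 95% intervals for old minus young, not adjusted for the number of genes, reached at most 0.35 in either direction. Changes on this scale may be understated, so larger changes are not excluded.

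Rac2, the GTPase, had overlapping levels at the 3 ages. It lies on the minus strand of chromosome 15 at 78559167 to 78572783. Its levels were 14.85, 15.15 and 14.91 in young, 15.06, 15.34 and 14.91 in middle-aged and 14.95, 15.15 and 15.03 in old libraries. Replicate 2 was the highest library at each age. The change from young to old was 0.07 ± 0.12 (interval -0.20 to 0.34, adjusted p = 0.799, limma, Benjamini-Hochberg). Its paralogue Rac1, which is expressed in most cell types, had a change of -0.15 ± 0.08 over the same ages (adjusted p = 0.384), with old libraries at 12.12 or below and young ones at 12.15 or above, a lack of overlap in this direction that 12.3% of all genes showed. Exons of Rac1 share bases with those of Daglb on the opposite strand.

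An F test over the 3 ages and a test of whether the later step differed from the earlier one were run on the same fit. The F test called 0 of 5 genes (limma, Benjamini-Hochberg; 0.836% of all genes), with 2 of 5 at an unadjusted p under 0.05 (15.3% of all genes). Its adjusted p was 0.18 for Cybb and 0.144 for Cyba, and between 0.788 and 0.881 for the other 3. With library weights it called 2, Cybb and Cyba. For the difference between the steps, 0 of 5 genes and 0.00% of all genes were called, and 0 of 5 had an unadjusted p under 0.05 against 7.90% of all genes. The later minus the earlier step was -0.34 ± 0.30 (SE, adjusted p = 0.818) for Cybb and 0.07 ± 0.16 for Cyba on the log2 scale. The Cybb estimate rested on single libraries: it was -0.70 (adjusted p = 0.574) without middle-aged replicate 3 and -0.06 without middle-aged replicate 2. The median change of the 5 genes was 0.13 in middle-aged against young, 0.11 in old against young and 0.04 in old against middle-aged libraries, beside medians of -0.00082, -0.0086 and -0.004 over all genes tested. The comparisons share libraries, so these medians are not independent of each other.

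**Figure D2:**
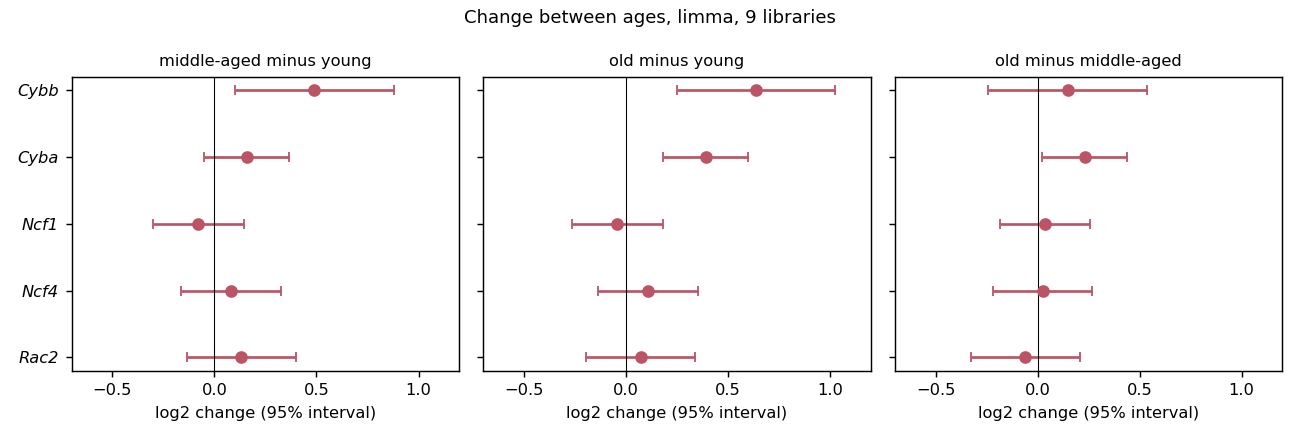
Log2 change (horizontal axis) of the 5 oxidase genes in the 3 comparisons of ages; points are limma estimates over 9 libraries and bars their 95% intervals, not adjusted for the number of genes. In old minus young the intervals of Cybb and Cyba lie above 0, and those of Ncf1, Ncf4 and Rac2 include 0.

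For plain log2 values a difference between 2 genes within a library does not depend on how libraries were scaled. Each other subunit was therefore also set against Cybb in the same library. The transformation of the values used here is not stated, so this property may hold only in part. Ncf1 minus Cybb was -3.41 ± 0.21 (SD, n = 3) on the log2 scale in young, -3.98 ± 0.33 in middle-aged and -4.09 ± 0.19 in old libraries. Ncf4 minus Cybb was -1.04 ± 0.15, -1.45 ± 0.17 and -1.57 ± 0.34 at the same ages. Rac2 minus Cybb was 0.48 ± 0.14, 0.13 ± 0.15 and -0.08 ± 0.23. For these 3 genes neither later age overlapped the young libraries. All 3 differences share Cybb, and of all other genes set against Cybb in the same way 73.8% were lower with no overlap in old and 33.6% in middle-aged libraries, so nothing about the oxidase is read from this separation. The exact two-sided permutation p was 0.1 for each, the smallest 3 against 3 libraries allow, with a Benjamini-Hochberg adjusted p of 0.2 over 12 comparisons. Cyba minus Cybb was 0.65 ± 0.20, 0.31 ± 0.29 and 0.40 ± 0.39, with overlapping ages (exact permutation p = 0.4 for old against young, adjusted p = 0.533). Taken as a mean of 2 genes each, the membrane pair Cybb and Cyba exceeded the cytosolic pair Ncf1 and Ncf4 by 2.46, 2.59 and 2.60 in the young libraries. The excess was 2.96, 2.91 and 2.74 in the middle-aged and 3.18, 2.95 and 2.96 in the old libraries, with every library of the later ages above the young ones. These means were formed after the values were seen, contain Cybb and are a description only.

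Levels of different genes were compared per kilobase of annotated exon (the union over all transcripts of a gene in GENCODE M21), as linear normalized counts per kb. Cyba was the most abundant of the 5, at 34644 ± 2226 (SD, n = 3) in young and 45547 ± 5390 in old libraries, which ranked it 48th and 43rd of 14898 genes. Rac2 followed at 10392 ± 1193 in young and 10899 ± 773 in old libraries. Ncf4 was at 5546 ± 329 and 5982 ± 527, and Cybb at 3989 ± 610 and 6200 ± 928. In young libraries every Cybb level per kb, 3304 to 4476, was below every Ncf4 level, 5224 to 5882. In old libraries the 2 ranges overlapped, 5131 to 6802 for Cybb and 5429 to 6479 for Ncf4. Rac1 was lower at 1041 ± 32 and 936 ± 45, and Ncf1 the lowest at 589 ± 43 and 573 ± 47. Ncf1 thus lay at the 75.5th percentile of all genes per kb in young libraries, when the other 4 of the 5 genes were at the 96.2nd or above. Lengths from all annotated transcripts may exceed those used in these cells, which lowers a level per kb.

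**Figure D3:**
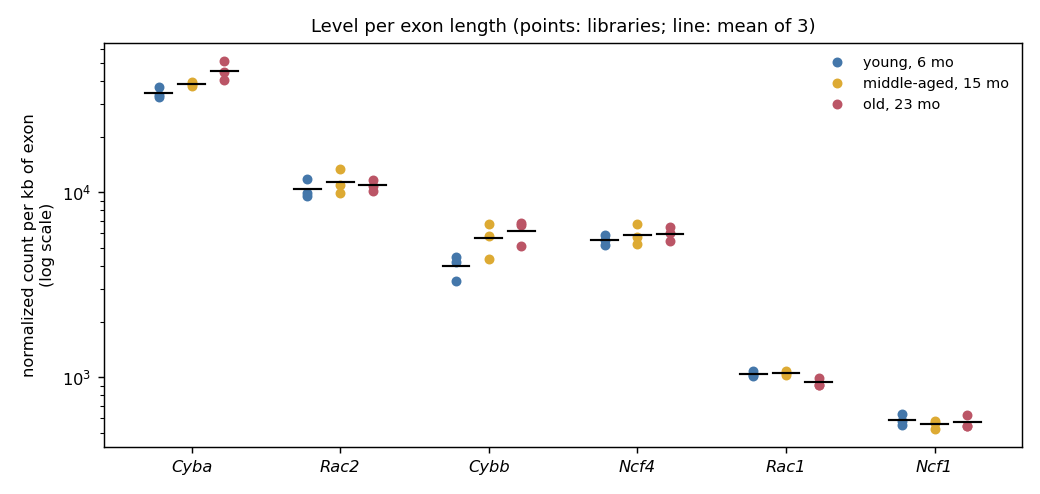
Linear normalized count per kb of exon (vertical axis, log scale) of the 5 oxidase genes and Rac1, with 1 point per library, colours for the 3 ages and a line at the mean of 3 libraries. Cyba lies highest and Ncf1 lowest at each age, and Cybb goes from below Ncf4 in young libraries to overlap with it in old ones.

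Neutrophil markers overlapped between all 3 ages. Their summed linear level was 325981 to 562378 in young, 491059 to 1061630 in middle-aged and 270034 to 547529 in old libraries, with the highest in middle-aged replicate 2. From young to old 0 of 16 were called, 0 had an unadjusted p under 0.05 and their median log2 change was 0.03 (limma, Benjamini-Hochberg). Over all genes 2.00% were called and 16.8% had an unadjusted p under 0.05. From young to middle-aged the median was 0.49, with 0 of 16 called and 4 at an unadjusted p under 0.05 in either direction. Of all genes 0.114% were called there. At that unadjusted level 6.21% of all genes were higher. The share in either direction was not computed for these ages, so the count of 4 has no like share beside it. From middle-aged to old the median was -0.59, with 0 of 16 called (0.174% of all genes) and 1 of 16 changes positive. Old replicate 1 had the lowest neutrophil sum of all 9 libraries. All old libraries, this one among them, lay above every young library in Cybb and in Cyba. Rac2 and Ncf4 were highest of all 9 libraries in middle-aged replicate 2. Over the 9 libraries the mean deviation of the 16 markers, as a description, had a Pearson r of 0.814 with Rac2 (Spearman rho 0.717) and 0.798 with Ncf4 (rho 0.783). Without the 2 libraries farthest from the median score, middle-aged replicate 2 and old replicate 1, r was 0.703 and 0.707. The r with Cybb was 0.32, with Cyba 0.127 and with Ncf1 0.17, and without the same 2 libraries it was 0.67, 0.707 and -0.03. For deviations from the mean of each age, r was 0.961 with Ncf4, 0.833 with Rac2, 0.456 with Ncf1, 0.432 with Cyba and 0.365 with Cybb. Fewer cells of a type and less RNA per cell cannot be told apart in such bulk libraries, and the part of neutrophil RNA in the levels of the 5 genes was not tested.

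Some monocyte markers rose with age. Their summed level was 25762 to 33774 in young, 29297 to 54209 in middle-aged and 32080 to 54198 in old libraries. Of 12 tested 2 rose from young to old, Plac8 and Ms4a4c, with 5 at an unadjusted p under 0.05 and a median log2 change of 0.42 (limma, Benjamini-Hochberg). Of all genes 1.70% rose and 0.301% fell from young to old, and 16.8% had an unadjusted p under 0.05. These shares stand beside every marker count in this paragraph. The mean deviation of the 12 markers had an r of 0.823 with Cybb (rho 0.933) over 9 libraries, 0.731 without old replicate 2 and middle-aged replicate 2, and 0.647 for deviations from the mean of each age. For Cyba these values were 0.51 (rho 0.783), 0.82 and -0.105. Rac2 and Ncf4 were about as close to the monocyte markers, Rac2 with 0.776 (rho 0.783), 0.602 and 0.865 and Ncf4 with 0.792 (rho 0.833), 0.828 and 0.786. Ncf1 had 0.219 (rho -0.03). The part of monocyte RNA in the levels of the 5 genes was not tested. In border macrophage markers 2 of 12 fell from young to old, Mgl2 and Stab1, and 10 of 12 had an unadjusted p under 0.05, with a median of -0.46. Over 9 libraries their mean deviation had an r of -0.421 with Cybb, -0.71 with Cyba, 0.123 with Ncf1, -0.418 with Ncf4 and -0.202 with Rac2. For deviations from the mean of each age these were 0.6, -0.243, -0.211, -0.206 and 0.065. The part of border macrophage RNA in the levels of the 5 genes was not tested. The microglia markers had a median of -0.20, with Siglech and Fcrls falling and 8 of 9 at an unadjusted p under 0.05. Their mean deviation had an r of -0.35 with Cybb, -0.545 with Cyba, 0.375 with Ncf1, -0.273 with Ncf4 and -0.0256 with Rac2. For deviations from the mean of each age these were 0.615, 0.071, 0.224, 0.0235 and 0.364. Lymphocyte markers had a median of 0.31 with 1 of 11 rising, Cd8a, and 9 of 11 at an unadjusted p under 0.05, at summed levels of at most 6038. Of 10 neural and vascular markers tested, 0 were called and 2 had an unadjusted p under 0.05 from young to old (limma), at summed levels of 5675 to 7869.

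**Figure D4:**
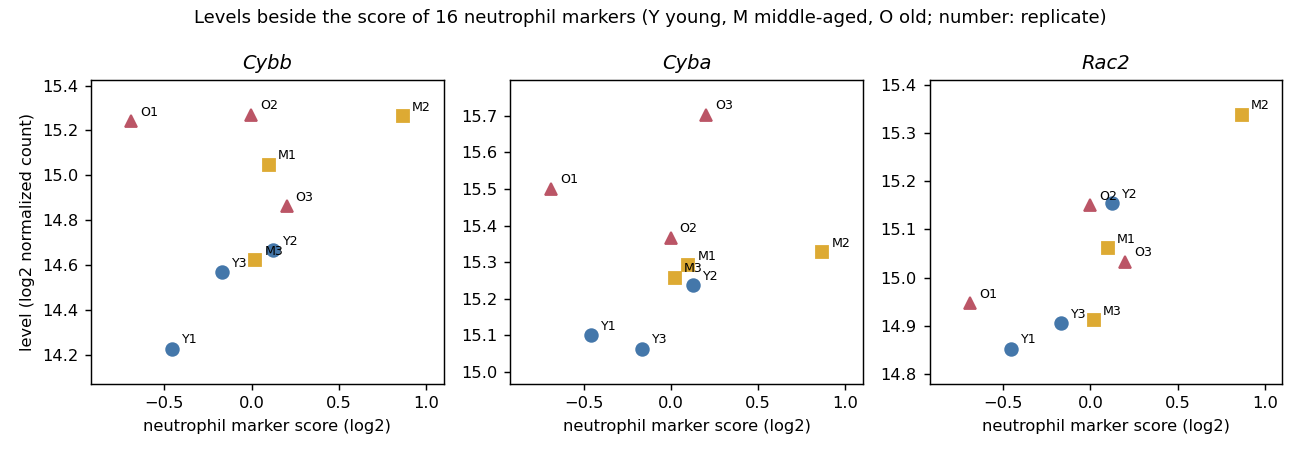
Log2 normalized count of Cybb, Cyba and Rac2 (vertical axes) against the neutrophil marker score, the mean log2 deviation of 16 markers from their means over 9 libraries (horizontal axes); each point is 1 library, lettered by age and numbered by replicate. Scores run from -0.69 in old replicate 1 to 0.87 in middle-aged replicate 2, which has the highest Rac2.

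Genes that act around the oxidase were taken from 5 lists. Of 16 receptors that can trigger it, 3 rose and 0 fell from young to old, where 1.70% of all genes rose and 0.301% fell, with a median log2 change of 0.14 (limma, Benjamini-Hochberg). Clec7a, encoding the fungal glucan receptor Dectin-1, had levels of 12.80, 12.84 and 12.79 in young and 14.65, 14.72 and 14.59 in old libraries, a 3.59-fold rise (1.85 ± 0.13, adjusted p = 7.85e-05). Tlr2, encoding a receptor for bacterial lipoproteins, rose 1.95-fold (0.96 ± 0.10, adjusted p = 0.000926), from 12.98, 13.19 and 13.03 to 14.07, 14.07 and 13.94. Fcgr4, encoding an activating receptor for IgG, rose 1.50-fold (0.58 ± 0.11, adjusted p = 0.0298). The authors' deposited table gave larger log2 fold changes for the 3, at 2.38 for Clec7a, 1.2 for Tlr2 and 0.81 for Fcgr4. The calls of Clec7a and Tlr2 held whichever library was left out, and that of Fcgr4 was lost without young replicate 1, 2 or 3, middle-aged replicate 2, or old replicate 1 or 2 (log2 0.51 to 0.64, adjusted p 0.0513 to 0.174). Clec7a had already risen 2.11-fold by middle age (1.08 ± 0.13, adjusted p = 0.0189), a call lost without young replicate 1, 2 or 3 (adjusted p = 0.122, 0.0861 and 0.124; log2 1.07, 1.10 and 1.07). It was the 1 receptor of 16 called at that age, where 0.114% of all genes were called.

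Of 14 genes for Rac and Rap GTPases and their regulators, 0 rose and 1 fell from young to old (limma, Benjamini-Hochberg), and the median was 0.01. Of all genes 1.70% rose and 0.301% fell, shares that stand beside every count of called genes in this paragraph. The gene called was Vav2, a guanine nucleotide exchange factor for Rac, which fell to 0.684 of its young level (-0.55 ± 0.12, adjusted p = 0.0427), from 12.99, 12.55 and 12.83 to 12.30, 12.22 and 12.21. The authors' deposited table gave Vav2 -0.68 (adjusted p = 0.000827). Here it kept its call when young replicate 2 or middle-aged replicate 3 was left out, and lost it without any one of the other 7 libraries (-0.45 to -0.57, adjusted p 0.0612 to 0.204). Of 18 kinases and lipid kinases of the pathway, 0 were called and 3 had an unadjusted p under 0.05, where 16.8% of all genes did, with a median of -0.02. Prkca, encoding protein kinase C alpha, had a change of -0.79 ± 0.25 (adjusted p = 0.14). Its exons share bases with Apoh on the opposite strand. Mapk14, encoding p38 alpha, had -0.35 ± 0.11 (adjusted p = 0.157). In the authors' deposited table both were called lower, at -0.87 (adjusted p = 0.000834) and -0.45 (adjusted p = 0.00792). With library weights both were called here, at -0.86 (adjusted p = 0.0165) and -0.38 (adjusted p = 0.0189). Of 10 transcription factor genes known to act on phagocyte oxidase genes or close to them, 0 were called from young to old and 3 had an unadjusted p under 0.05 (limma, Benjamini-Hochberg), beside the same 16.8% of all genes. Cebpb, encoding C/EBP beta, had a change of 0.67 ± 0.17 (adjusted p = 0.0722), after 0.89 ± 0.17 at middle age (adjusted p = 0.0911). It was called in the authors' deposited table at both ages, at 1.03 (adjusted p = 0.000174) and 1.2 (adjusted p = 1.49e-08). It was called here with library weights, at 0.63 and 0.91, and also from young to old without old replicate 2 (0.82, adjusted p = 0.0382) and at middle age without old replicate 3 (0.89, adjusted p = 0.0427). Elf1, an ETS family factor gene, had -0.23 ± 0.09 (adjusted p = 0.218), and was called with library weights (-0.26, adjusted p = 0.0326). Cebpb shares exonic bases with Tmem189 and Elf1 with Wbp4 on the opposite strand.

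The genes whose levels were most like those of each subunit were found by Pearson r over the 9 libraries among the genes tested. The subunits themselves and genes with placeholder (such as Gm or Rik) or pseudogene names were left out. For Cybb the nearest was Vcam1, encoding the adhesion molecule VCAM-1, with r = 0.995 and at least 0.992 when any library was left out. Vcam1 had levels of 12.23, 12.59 and 12.48 in young, 12.91, 13.04 and 12.48 in middle-aged and 12.98, 13.05 and 12.71 in old libraries, with the same low middle-aged replicate 3 and old replicate 3. Next were Il1rn, encoding the interleukin-1 receptor antagonist (r = 0.969), and C1galt1c1, encoding a chaperone of O-glycan synthesis (r = 0.959). For Cyba they were Atp5b (r = 0.982), which encodes a subunit of mitochondrial ATP synthase, Fis1 (r = 0.98), of mitochondrial fission, and C1qb (r = 0.977), of complement C1q. For Ncf4 the nearest was Sap30 (r = 0.96) and for Ncf1 Itga8 (r = 0.933). For Rac2 they were Cdkn2d (r = 0.973), a cell cycle inhibitor gene, Hp (r = 0.966), the haptoglobin gene that is also in the monocyte marker list, and Cnn2 (r = 0.956). Each was picked for its high r among the genes so kept from the 14955 tested, and is given as a description. Among the 5 subunits, Rac2 and Ncf4 were most alike (r = 0.847), Cybb and Cyba had r = 0.573, and Ncf1 had at most 0.404 with any other.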

How the data were processed

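Per the labels' protocols, each library was made from RNA of sorted microglia of 3 pooled mice. Per the submitters' processing notes, STAR 2.5.3, cutadapt 1.13, CASAVA and DESeq2 1.16.1 were used with mm10, with counter, roles and annotation not given in the sources used here. Values per library are in a table that, though named for normalized counts, holds log2 values as the authors deposited them (-2.144 to 20.05), with no transformation stated. For each pair of ages the authors deposited a table of base means (a signal), log2 fold changes, test scores, p-values and adjusted p-values. Depth is unknown, so no count test was run.

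The planned log2 step was left out since values were already on that scale. A gene was tested when it reached 10 (log2 3.322) in at least 3 libraries. One model with age as the factor was fitted to all 9 libraries (limma 3.58.1, R 4.3.3, variance trend), with two-sided tests and Benjamini-Hochberg adjustment over 14955 genes at 0.05; there were 6 residual and 4.569 prior degrees of freedom. The fit was tested on simulated data. SEs are limma's and intervals are 95%. The 5 subunits and all lists were chosen with earlier results of these data known. Named genes of other lists were those called in any comparison, up to 6 by adjusted p, or else the 2 with the smallest p; Rac1 was added for its role after its values were seen. Some genes are not reported here. Gene models are GENCODE M21 (GRCm38, the build of the files), and 14898 tested genes had a single model. matplotlib 3.10.9 drew the figures. Alternatives were pseudocounts of 1 and 10, other filters, scalings and variance settings, library weights, a replicate block, 2 ages alone and each library left out; leaving out middle-aged replicate 2 and old replicate 3 together was added after seeing the data.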

Additional observations from a re-analysis of the deposited data

How the results depend on the processing

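No subunit was called in middle-aged against young or in old against middle-aged libraries under any alternative run. In old against young the count of called subunits was 2 with library weights (Cybb at 0.70, Cyba at 0.39). It was 0 to 1 when each library was left out, Cybb then ranging from 0.51 to 0.77 and Cyba from 0.30 to 0.47. The F test count was 2 with library weights. The cause was not tested. Changes near 0 turned sign. With middle-aged replicate 2 and old replicate 3 both left out, Ncf4 was at -0.0157 from young to middle age, and Rac2 at 0.0624 from middle age to old; the later minus the earlier step was 0.0735 for Cybb, 0.0789 for Ncf4 and 0.0473 for Rac2. With library weights Ncf4 was at -0.0828 from middle age to old, and the step difference of Cyba was -0.00644. With each library left out in turn, old minus middle-aged ranged from -0.0313 to 0.290 for Cybb, 0.142 to 0.310 for Cyba, -0.0299 to 0.0703 for Ncf1, -0.0563 to 0.123 for Ncf4, -0.156 to 0.0572 for Rac2 and -0.159 to 0.0424 for Mapk14. Old minus young ranged from -0.108 to 0.0145 for Ncf1, and middle-aged minus young from -0.0157 to 0.163 for Ncf4 and from -0.00212 to 0.0415 for Rac1. The step difference ranged from -0.699 to -0.0572 for Cybb, -0.0168 to 0.151 for Cyba, -0.220 to 0.138 for Ncf4 and -0.384 to 0.0420 for Rac2. The difference from Cybb in the same library, old minus middle-aged, ranged from -0.136 to 0.245 for Cyba, -0.227 to 0.0810 for Ncf1 and -0.312 to 0.00444 for Ncf4.

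Same-numbered libraries did not pair: their deviations from the age means had r from -0.242 to 0.234, over 0.1 in 3 of 9 pairs, and 3 of 9 libraries were most like one of their own number. With the replicate block Cybb in old against young was at 0.64 (adjusted p = 0.0742) and Cyba at 0.39 (adjusted p = 0.112; limma, Benjamini-Hochberg), 185 genes were called against 299, and Nox1 and Vav2 were not called; no call of a subunit changed. Over all genes, old against young gave 299 calls, 170 without a filter, 153 with the 2 ages alone, 144 without middle-aged replicate 2 and old replicate 3, and 83 to 322 with each library left out. What depth limits was not tested, since it is unknown.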

Other observations

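Genes of the non-phagocytic oxidases were mostly low in these cells. Nox4, Duox1, Duox2 and Duoxa2, of the non-phagocytic oxidases, were below the filter in the table, with log2 levels of at most 0.58. Noxo1, an organiser used by NOX1, was tested at 5.61 to 5.78 with a difference of 0.01 ± 0.06 from young to old (adjusted p = 0.924, limma, Benjamini-Hochberg). Duoxa1, a maturation factor gene of the DUOX1 enzyme, was at 7.59 to 8.56 and had the change of greatest size among the tested genes of this list, -0.45 ± 0.19 from young to old (adjusted p = 0.277). Of 6 genes of this list that were tested, 0 rose and 1 fell from young to old, where 1.70% of all genes rose and 0.301% fell. The gene that fell was Nox1, which encodes a catalytic subunit known from colon epithelium. Its log2 levels were 5.01, 5.07 and 5.16 in young, 4.87, 4.88 and 4.94 in middle-aged and 4.87, 4.88 and 4.87 in old libraries, a change of -0.21 ± 0.04 (adjusted p = 0.043). The call held in 1 of 9 fits that left out a library, the one without middle-aged replicate 3, with an adjusted p of up to 0.198 in the others. For this low gene the authors' deposited table gave -0.75 (adjusted p = 5.7e-06), with a base mean of 46.3 in that table, 50.2 in the one for young and middle-aged mice and 6.17 in the one for middle-aged and old mice. On the linear scale the levels used here ran only from 29.2 to 35.8. The base means thus differ far more than these levels do, and low values look compressed on the scale used here. The size of the Nox1 fall and its SE may therefore be understated. Exons of Nox1 share bases with those of Cstf2 on the opposite strand.

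A further 3 genes act on the phagocyte enzyme itself. Cybc1, whose product is a chaperone of the gp91phox and p22phox heterodimer, was at 13.95 to 14.37 with a difference of -0.0036 ± 0.13 from young to old (adjusted p = 0.991, limma, Benjamini-Hochberg). Nrros, known as a negative regulator of the enzyme in phagocytes, was at 14.59 to 14.72 with a change of -0.07 ± 0.07 (adjusted p = 0.641). Hvcn1, the proton channel gene that compensates the charge moved by the enzyme, was at 11.17 to 11.87, with changes of -0.11 ± 0.11 by middle age, 0.32 ± 0.11 from young to old and 0.43 ± 0.11 from middle age to old (adjusted p = 0.792, 0.176 and 0.22). These genes were looked at by name because of their role, and none of the 3 passed the threshold.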
